A study of Mus musculus with 6 samples.

Results

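Glycosyltransferases are the Golgi enzymes that join single sugars into the chains carried by glycoproteins and glycolipids, and the genes described here are the mouse members of the families that start, branch, extend and cap those chains. They were taken by symbol: every gene symbol in the deposited tables that begins with Galnt, B3galt, B3gnt, B4galt, B4galnt, St3gal, St6gal, St6galnac, St8sia, Fut, Gcnt or Mgat followed by a digit, and the blood group gene Abo. The rule took 86 of 24421 symbols. Of these, 84 are named as enzymes, and the other 2 are Fut4-ps1, named as a pseudogene, and St8sia3os, named as an opposite-strand transcript.

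RNA was sequenced from the prostate of mice of a cancer model in which a gene flanked by LoxP sites is removed by Cre from the PB-Cre4 transgene. All samples shared this genotype, so there is no group without the deletion. The only labelled difference between the groups is whether the mouse was intact (2 samples) or castrated (4 samples, labelled Cx). PB-Cre4 places Cre under the probasin promoter, which is active in prostate epithelium, so the deletion is expected in epithelial cells and not in the other cells of the tissue. The labels give neither age nor time since castration, and do not say that samples came from separate animals, so p-values rest on sample-to-sample spread that may be only technical.

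Chain building follows a set order. GALNT enzymes put the first N-acetylgalactosamine (GalNAc) on serine or threonine, which starts mucin-type O-glycans, and MGAT enzymes add the N-acetylglucosamine (GlcNAc) branches of N-glycans. B4GALT and B3GNT enzymes alternate galactose and GlcNAc to lengthen chains, GCNT enzymes branch them, and sialyl- and fucosyltransferases cap them. Blood group antigens are caps of this kind, made when fucose, GalNAc or galactose is added to the end of a chain. The prostate secretes glycoproteins, so these enzymes act there on both surface and secreted proteins.

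Each sample held 43679297 to 59170793 reads counted in genes. A value of 3 reads, taken as the detection floor, stood at 0.0507 to 0.0687 CPM (reads per 1000000 reads counted in genes) and covers counting error only. Levels below are rescaled CPM, the deposited CPM divided by a per-sample factor of 0.978 to 1.05. Differences are castrated minus intact on the log2(rescaled CPM + 0.5) scale, which understates changes of low genes, and adjusted p-values are from limma with Benjamini-Hochberg adjustment over all 13898 genes tested. Of the 5 androgen-response reference genes tested, 4 fell in the castrated samples, among them Fkbp5, Zbtb16 and Tmprss2, and 0 rose. Luminal epithelial markers summed to 8517 to 8846 in intact and 6070 to 9779 in castrated samples, and seminal vesicle markers to at most 0.162 in any sample, with 3 of the 6 genes at 0 reads throughout. Smooth muscle markers summed to 193.5 to 208.2 in intact and 257 to 461 in castrated samples, with 0 of 6 past the test. The log2 profile of castrated sample 4 correlated with castrated samples 1, 2 and 3 at 0.941, 0.970 and 0.954. Samples 1 and 3 correlated at 0.988, and sample 2 correlated with samples 1 and 3 at 0.969 and 0.974. Sample 4 was thus as close to sample 2 as sample 1 was, and further from samples 1 and 3. Without castrated sample 4, 1047 genes (7.53%) passed the test, against 274 (1.97%) with it.

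Of the 86 genes, 65 passed the filter on low values (CPM at or above 1 in 2 or more samples). Abo passed it only through the intact samples, and Gcnt3, Mgat5b and St8sia1 only through the castrated ones. After castration 5 of the 65 fell and 1 rose at adjusted p under 0.05. Abo, the A/B blood group transferase, B4galnt2, B4galt6, B4galt1 and B4galnt1 were lower, and Gcnt1, the core 2 O-glycan branching enzyme, was higher. These 6 are 9.23% of the tested members, where 1.97% of all tested genes passed, 1.27% lower and 0.698% higher. The median log2 difference was -0.08 over the tested members and 0.00 over all tested genes, with 27 members above 0 and 38 below. By count models on the recovered reads, 5 of the 65 passed with edgeR (1.46% of all tested genes) and 14 with DESeq2 (9.30%), and limma with array weights, which lower the weight of samples that fit their group poorly, passed 13 (6.86%). In 27 members (41.5%) the intact and castrated samples did not overlap, against 26.6% of all tested genes. The members were chosen with earlier results of these data known, so these shares describe the members and do not test them as a set. For 28 of the 59 members that did not pass, the 95% interval of the difference lay within 1 log2 unit of 0, and 10 of those lay within 0.5, while the intervals of the other 31 reached past 1 unit. In whole tissue, fewer cells of a type and less RNA per cell cannot be told apart, and this holds for every difference given here.

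**Figure D1:**
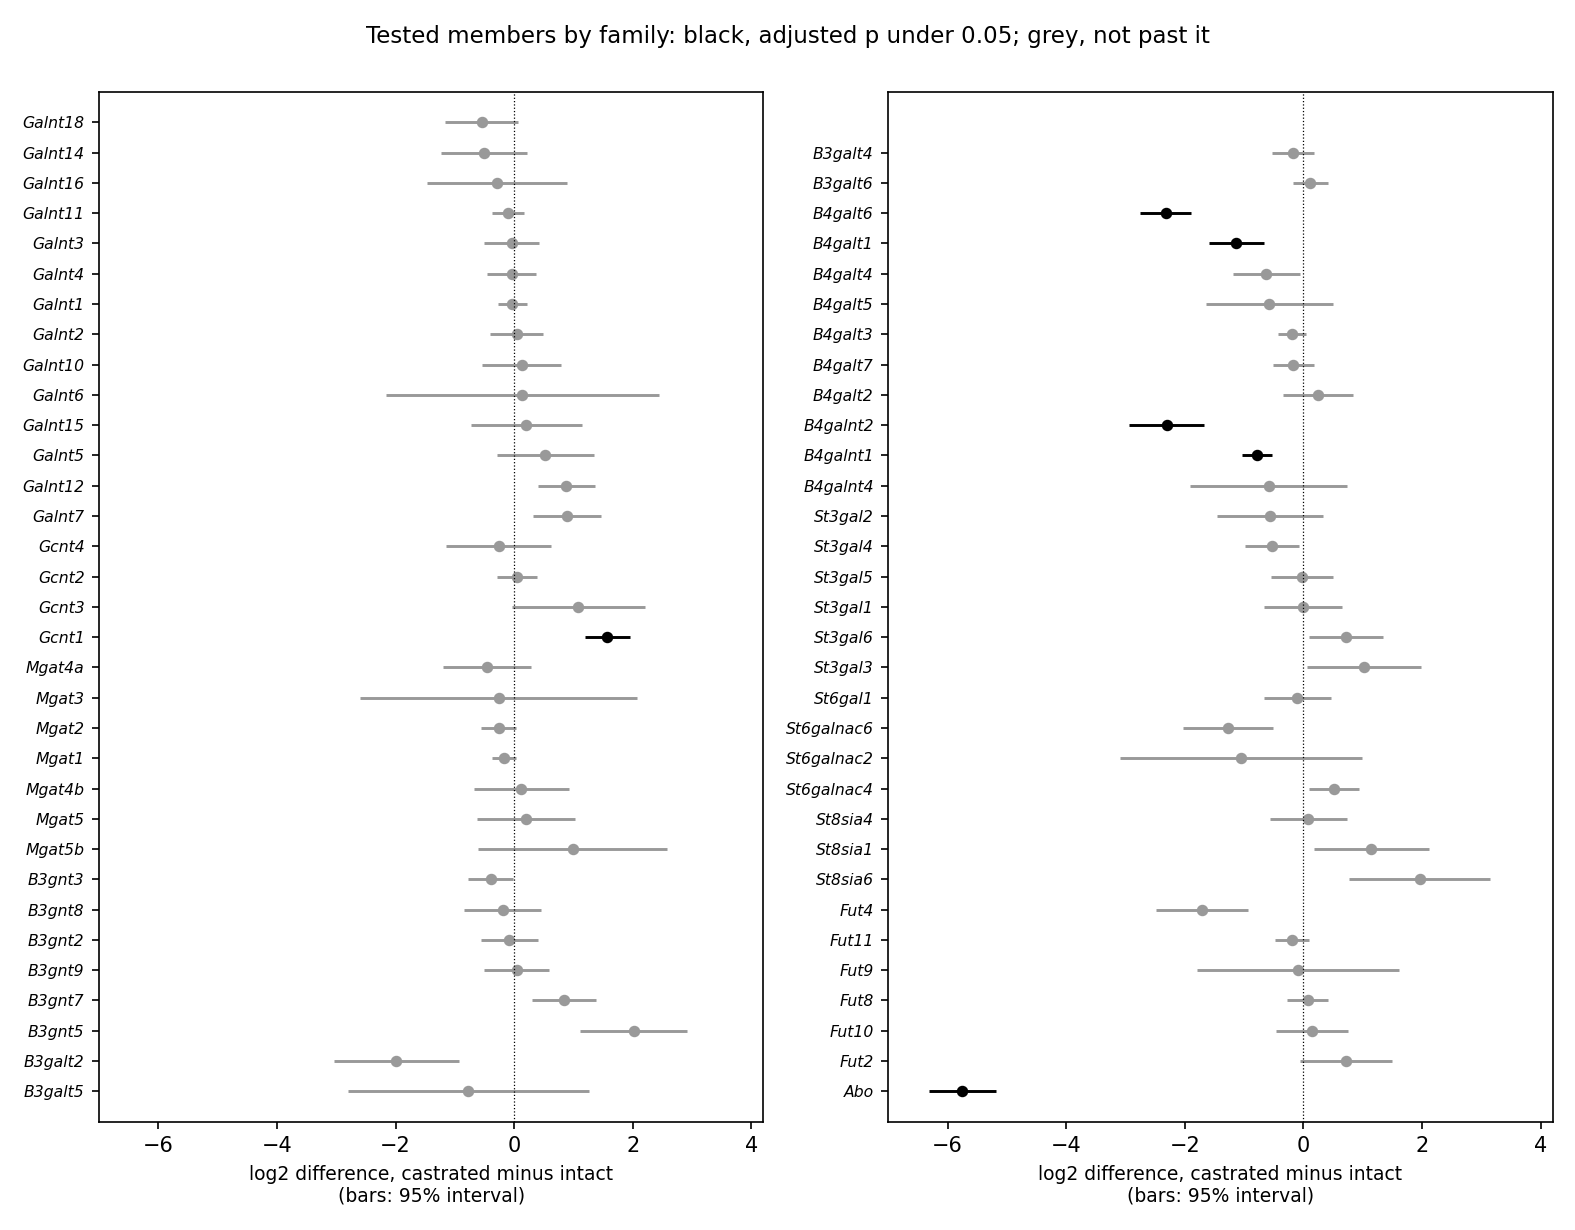
Log2 difference (castrated minus intact, horizontal axis) of the 65 tested members grouped by family, with 95% intervals as bars. Black points passed adjusted p under 0.05 (Abo, B4galnt2, B4galt6, B4galt1 and B4galnt1 to the left, Gcnt1 to the right), and the widest bars belong to Mgat3 and Galnt6.

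Abo encodes the enzyme that turns the H antigen into the A or B antigen by adding GalNAc or galactose. The gene (ENSMUSG00000015787.15) lies on the minus strand at chr2:26842503-26864979 of mm10. The intact pair held 31.4 and 26.7 rescaled CPM, and the castrated samples, here and below in order of their number, 0.038, 0.162, 0 and 0. Both intact samples were well above the floor, and castrated samples 1, 3 and 4 were below it. In reads, 2868 were counted over the intact pair and 11 over the 4 castrated samples, 9 of them in castrated sample 2. Means were 29.0 ± 3.31 (SD, n = 2) and 0.0499 ± 0.0766 (SD, n = 4). The log2 difference was -5.75 (SE 0.24, 95% interval -6.32 to -5.19, limma adjusted p = 0.000347). Because the castrated level is near 0, its size depends on the pseudocount, from -7.72 with 0.1 to -3.92 with 2. With each of the 6 samples left out in turn, the log2 difference of Abo ranged from -5.87 to -5.64. Those fits kept the genes that passed the filter with all samples, which Abo did only through the intact pair.

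The H antigen that ABO acts on is made by FUT1 and FUT2. Fut2, the secretor gene of mucosal epithelia, was at 26.5 and 48.5 in intact samples and at 88.6, 51.1, 59.5 and 45.9 in castrated samples. Only castrated sample 4 fell inside the intact range. The difference of 0.72 (95% interval -0.061 to 1.498, limma adjusted p = 0.353) did not pass. Fut1, the H gene of red cells and vessels in people, did not pass the filter, at 0.114 to 0.987 rescaled CPM over the 6 samples. Gcnt2, which makes the branch that turns the i into the I antigen, was at 69.4 and 58.3 in intact samples and at 63.2, 74.2, 56.0 and 69.8 in castrated samples. The groups overlapped, at a difference of 0.04 (95% interval -0.30 to 0.38, limma adjusted p = 0.936).

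B4galnt2 makes the Sda antigen by adding GalNAc to a sialylated galactose, and was the most abundant member per length in both groups. It lies on the minus strand at chr11:95865943-95914891. The intact pair held 555 and 488 rescaled CPM, and the castrated samples 153, 112, 76.9 and 91.6. Every castrated sample was far below both intact samples, and castrated sample 1 was the highest of the castrated. Means of 521.7 ± 47.7 (SD, n = 2) and 108.4 ± 33.2 (SD, n = 4) gave a log2 difference of -2.31 (SE 0.26, 95% interval -2.94 to -1.68, limma adjusted p = 0.0167), a 4.95-fold fall. Leaving out intact sample 1 or 2 raised the adjusted p to 0.133 and 0.109. The antisense gene Gm11534 covers 15.3% of the exon bases of B4galnt2. The strand setting of the counting was not given in the sources used here, so reads of the overlapping genes cannot be told apart.

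The sequence just upstream of B4galnt2 is shown because this was the member with the largest absolute fall in level. It is the RefSeq promoter window on GRCm38.p6, minus strand, chr11:95914892-95915121, printed 5′ to 3′ up to the first exon base, with a GC box (GGGCGG) at position -71 from the RefSeq start in capitals.
B4galnt2: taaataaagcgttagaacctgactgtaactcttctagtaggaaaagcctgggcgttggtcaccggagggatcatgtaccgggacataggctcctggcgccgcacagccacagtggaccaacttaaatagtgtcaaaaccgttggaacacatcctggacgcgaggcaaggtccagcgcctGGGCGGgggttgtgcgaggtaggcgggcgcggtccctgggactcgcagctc
None of the other motifs searched was found in the printed bases on either strand.

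B4galt1 encodes the main enzyme that adds galactose to GlcNAc, the step that builds N-acetyllactosamine, and the gene lies on the minus strand at chr4:40804602-40854005. Its rescaled CPM was 259.7 and 321 in the intact pair and 116, 148, 107 and 161 in castrated samples. The groups did not overlap, and castrated sample 4 was the nearest to the intact pair. From 290.2 ± 43.2 (SD, n = 2) to 133.1 ± 25.8 (SD, n = 4), the log2 difference was -1.13 (SE 0.19, 95% interval -1.60 to -0.67, limma adjusted p = 0.0453), a 2.19-fold fall. The call is close to the threshold: it was lost with edgeR on the recovered reads (adjusted p = 0.0557), and with any sample other than castrated sample 4 left out, at adjusted p of 0.0968 to 0.273. The promoter window of B4galt1 is shown beside that of B4galnt2 for contrast: minus strand, chr4:40854006-40854234, GRCm38.p6, with 5 GC boxes in capitals (printed as the reverse complement of GGGCGG), at positions -239, -199, -159, -112 and -64.
B4galt1: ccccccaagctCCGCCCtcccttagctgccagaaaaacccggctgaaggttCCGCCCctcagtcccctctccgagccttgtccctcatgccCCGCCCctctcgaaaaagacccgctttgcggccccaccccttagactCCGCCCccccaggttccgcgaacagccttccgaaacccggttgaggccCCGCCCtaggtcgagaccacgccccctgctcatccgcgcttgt
The printed B4galt1 bases are 67.2% G or C, and those of B4galnt2 58.3%.

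Among the other B4galt genes, none passed outside of B4galt1 and B4galt6. B4galt4 was at 33.4 and 40.0 in intact samples and between 16.5 and 29.1 in castrated ones, a difference of -0.62 (95% interval -1.18 to -0.06, limma adjusted p = 0.257). B4galt3 (-0.19) and B4galt7 (-0.17, a step of the linker that anchors proteoglycan chains) had intervals within 1 log2 unit of 0. Summed over the 7 B4galt genes and divided by exon length, the family stood at 117 and 127 rescaled CPM per kb in intact samples and at 60.2, 69.5, 57.6 and 76.3 in castrated samples. The castrated sums were all below the intact sums.

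In glycolipid synthesis, galactose is added to glucosylceramide by B4GALT5 and B4GALT6, the lactosylceramide synthases. B4galt6, on the minus strand at chr18:20684599-20746404, had 81.7 and 71.3 rescaled CPM in the intact pair and 18.3, 12.1, 15.6 and 13.9 in castrated samples. The castrated samples lay close together and far below the intact pair. Means of 76.5 ± 7.38 (SD, n = 2) and 15.0 ± 2.62 (SD, n = 4) gave a log2 difference of -2.33 (SE 0.18, 95% interval -2.75 to -1.90, limma adjusted p = 0.00579), a 5.01-fold fall. Without intact sample 1 or 2 the adjusted p was 0.0782 and 0.0620. B4galt5, which does the same step, was at 34.1 and 21.4 in intact samples and at 12.5, 16.6, 13.4 and 36.8 in castrated samples. The last of these, castrated sample 4, was above both intact samples, and the difference of -0.58 (95% interval -1.65 to 0.49) did not pass.

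From lactosylceramide, ST3GAL5 makes the ganglioside GM3, ST8SIA1 makes GD3, B4GALNT1 makes GM2 and GD2, and B3GALT4 makes GM1. B4galnt1, on the plus strand at chr10:127165225-127172330, was at 212 and 193 in intact samples and at 119.8, 117, 107 and 130.0 in castrated samples. Every castrated sample was below the intact pair, with little spread in either group. Means were 202.9 ± 13.4 (SD, n = 2) and 118.4 ± 9.57 (SD, n = 4). The log2 difference was -0.78 (SE 0.11, 95% interval -1.03 to -0.52, limma adjusted p = 0.0243), a 1.71-fold fall. This call held with castrated sample 4 left out and was lost with any other single sample left out, at adjusted p of 0.0717 to 0.189. The antisense gene Slc26a10 covers 20.7% of the B4galnt1 exon bases and was itself at 0.0323 to 0.192 rescaled CPM.

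The other ganglioside enzymes were low or did not pass. St3gal5 was at 2.81 and 2.80 in intact samples and between 2.41 and 3.59 in castrated samples, a difference of -0.03 (95% interval -0.55 to 0.50). B3galt4 differed by -0.18 (95% interval -0.53 to 0.17). St8sia1 was at 0.562 and 0.874 in intact samples and at 3.59, 1.09, 2.71 and 1.92 in castrated samples. All castrated samples were above both intact samples, at a difference of 1.14 (95% interval 0.17 to 2.11, limma adjusted p = 0.23). St8sia1 passed the filter only through the castrated samples, so a higher castrated level was partly a condition of its being tested. Of these 6 ganglioside genes B4galt6 and B4galnt1 fell, and the other 4 did not pass the test.

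Mucin-type O-glycans start with the GALNT family, and none of its 14 tested members passed the test (16 members in all, median log2 difference 0.00). Summed per kb, the family stood at 179 and 171 in intact samples and at 179, 189, 186 and 173 in castrated samples. These ranges overlap. Galnt2, the most abundant of them per length by group mean, differed by 0.04 (95% interval -0.40 to 0.48, limma adjusted p = 0.957), a sign that turns when castrated sample 4 is left out (-0.089), and 90.0% of its exon bases are shared with the same-strand gene Gm20388. Galnt1 differed by -0.03 (95% interval -0.28 to 0.22) and Galnt3 by -0.04 (95% interval -0.51 to 0.42). The nearest to the threshold were Galnt12 and Galnt7, a follow-up enzyme that prefers peptides that already carry GalNAc. Galnt12 was at 8.19 and 6.68 in intact samples and at 12.9, 18.2, 13.6 and 12.0 in castrated samples, a difference of 0.88 (95% interval 0.39 to 1.36, limma adjusted p = 0.0921). Galnt7 was at 33.8 and 34.7 in intact samples and at 78.0, 65.1, 74.3 and 43.0 in castrated samples, also a difference of 0.88 (95% interval 0.31 to 1.46, limma adjusted p = 0.133). In both genes every castrated sample was above both intact ones, and without castrated sample 4 the adjusted p-values were 0.0437 and 0.00657.

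Gcnt1 encodes the enzyme that adds a GlcNAc branch to core 1 O-glycans to make core 2, and it was the only member that rose. The gene lies on the minus strand at chr19:17326141-17372844. Its rescaled CPM was 11.2 and 13.4 in the intact pair and 36.4, 42.1, 40.7 and 31.2 in castrated samples. All castrated samples were higher than both intact samples. Means of 12.3 ± 1.53 (SD, n = 2) and 37.6 ± 4.93 (SD, n = 4) gave a log2 difference of 1.57 (SE 0.16, 95% interval 1.19 to 1.95, limma adjusted p = 0.0106), a 2.96-fold rise. Leaving out intact sample 1, intact sample 2 or castrated sample 3 raised the adjusted p to 0.101, 0.0778 and 0.0520.

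Markers of neutrophils, cells known to carry core 2 O-glycans, moved in the same direction as Gcnt1. Of 5 neutrophil markers 4 rose (0 fell), and their sum was 29.7 to 68.0 in intact and 199.5 to 352.7 in castrated samples. Ionocyte-like markers rose in 3 of 4 tested, with sums of 2.55 to 15.1 in intact and 34.5 to 155.7 in castrated samples. The part of either cell type in the difference of Gcnt1 was not tested.

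Both upstream windows of Gcnt1 are shown because the gene has alternative starts that differ in sequence. They are RefSeq windows on GRCm38.p6, minus strand, 5′ to 3′, at chr19:17372845-17373094 and chr19:17356668-17356917. Capitals in the first mark a CCAAT box (printed as ATTGG) at -170 and TATAAA at -244 and, as its reverse complement, at -29, and the second held none of the motifs searched.
Gcnt1 upstream start: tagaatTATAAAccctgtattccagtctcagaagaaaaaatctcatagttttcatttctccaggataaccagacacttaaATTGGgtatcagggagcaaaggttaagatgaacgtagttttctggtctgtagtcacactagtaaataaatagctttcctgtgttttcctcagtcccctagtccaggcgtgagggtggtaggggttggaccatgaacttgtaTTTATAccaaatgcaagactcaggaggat
Gcnt1 downstream start: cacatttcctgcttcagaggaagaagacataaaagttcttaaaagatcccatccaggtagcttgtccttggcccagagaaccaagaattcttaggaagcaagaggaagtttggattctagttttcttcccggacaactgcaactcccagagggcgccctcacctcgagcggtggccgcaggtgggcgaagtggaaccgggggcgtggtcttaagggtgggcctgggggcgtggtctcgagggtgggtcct
The deposited counts are per gene, so use of one start or the other was not measured.

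Over the 61 members with an upstream window in RefSeq (87 windows, each searched over the full 250 bases before a RefSeq start, whereas the printed stretches stop at the first exon base), the motif shares can be read against all 32817 windows, on both strands and with no overlap allowed for among motifs. The full androgen response palindrome was in 0 of 87 windows and 3 of 32817 (0.00914%). Its 6-base core AGAACA was in 11 (12.6%) against 16.1%, and the GC box GGGCGG in 44 (50.6%) against 32.7%. CCAAT was in 27 (31.0%) against 33.8%, and TATAAA in 2 (2.30%) against 12.4%. A match is a run of letters and not a binding site, and these windows say nothing about more distant elements.

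**Figure D2:**
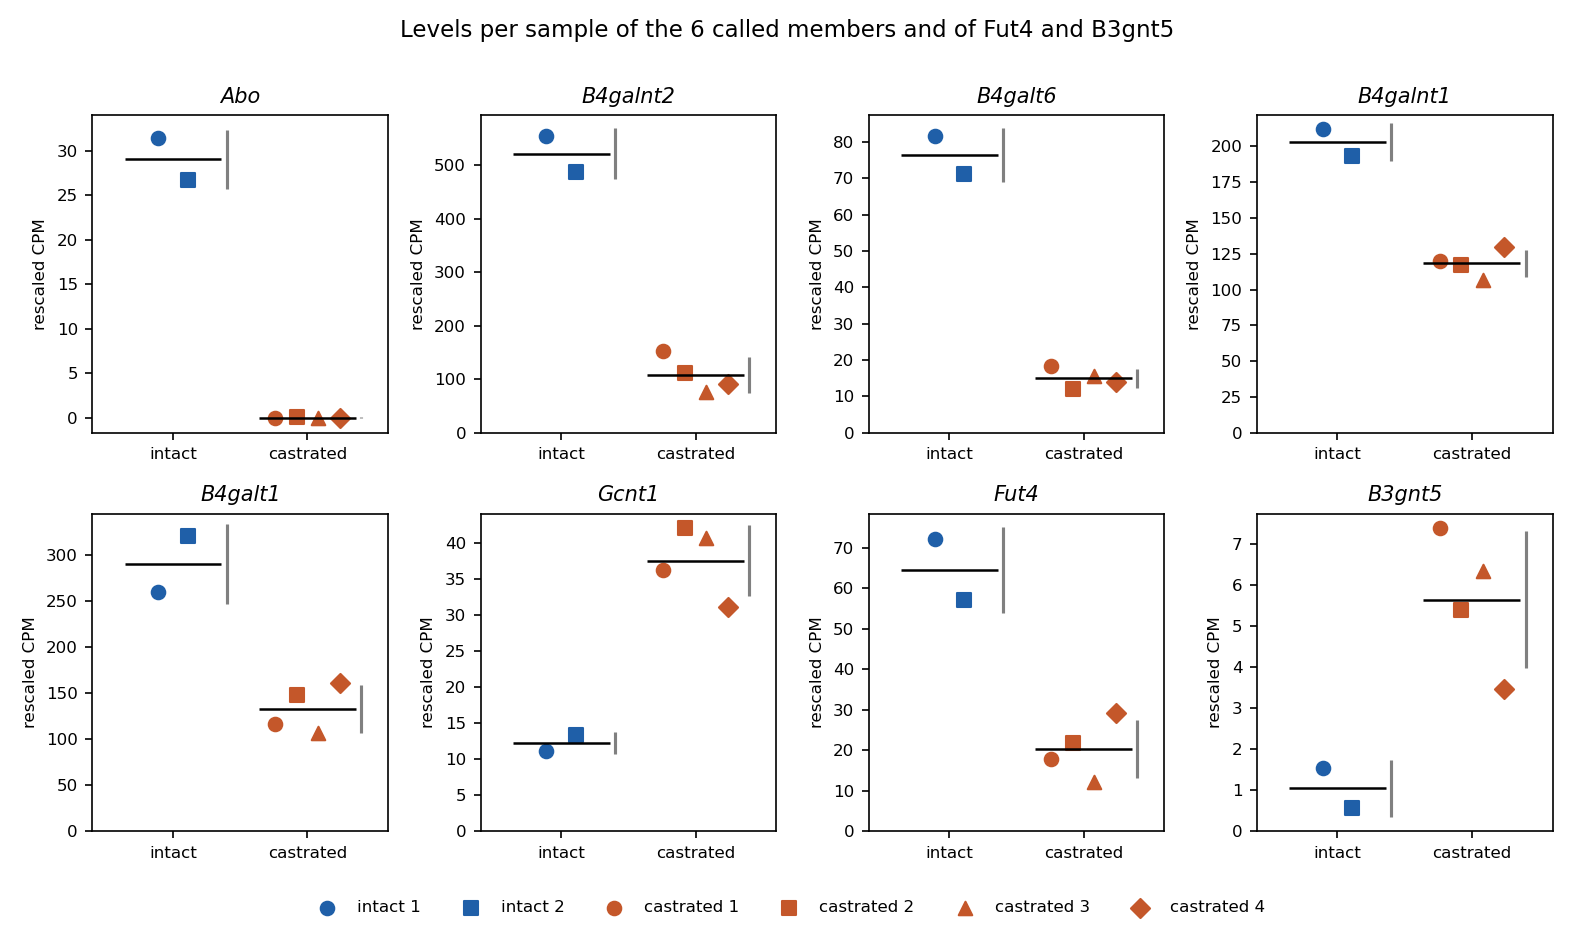
Rescaled CPM per sample (vertical axis, starting at or just below 0) of the 6 members that passed the test and of Fut4 and B3gnt5, the members nearest below it, with the group mean as a horizontal line and 1 SD as a grey bar (n = 2 intact, n = 4 castrated). In all 8 panels the intact and castrated samples are separate, and Abo lies at or near 0 in every castrated sample.

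The remaining branching enzymes of O-glycans were low. Gcnt3, the mucin-type core 2 and core 4 enzyme, was at 0.281 and 0.927 in intact samples and at 1.79, 3.54, 1.32 and 0.985 in castrated samples. Castrated sample 4 was barely above the intact pair, and the difference of 1.08 (95% interval -0.04 to 2.20, limma adjusted p = 0.33) did not pass. Gcnt3 also passed the filter only through the castrated samples. B3gnt6, which makes core 3, was below the filter at 0.0761 to 0.595.

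Of the St6galnac family, whose members sialylate O-glycans or gangliosides, 3 of 6 members were tested, and none passed. St6galnac6, which acts on gangliosides and type 1 chains, was at 21.8 and 11.02 in intact samples and at 5.55, 5.19, 5.70 and 8.61 in castrated samples, a difference of -1.27 (95% interval -2.03 to -0.51, limma adjusted p = 0.111). St6galnac4, which makes the disialylated core 1 chain, was at 9.20 and 7.76 in intact samples and between 10.8 and 14.5 in castrated samples. Its difference was 0.51 (95% interval 0.09 to 0.94, limma adjusted p = 0.219). For both genes the groups did not overlap, in opposite directions. St6galnac5 had 11 reads over the intact samples and 0 over the castrated samples, and was not tested.

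The enzymes that lengthen chains with GlcNAc held the member nearest below the threshold. B3gnt5 starts lacto- and neolacto-series glycolipids by adding GlcNAc to lactosylceramide. It was at 1.55 and 0.560 in intact samples and at 7.38, 5.39, 6.33 and 3.47 in castrated samples. The lowest castrated sample was above the higher intact one. The difference was 2.02 (95% interval 1.12 to 2.92, limma adjusted p = 0.0566), and without castrated sample 4 the adjusted p was 0.0174. B3gnt7, which extends keratan sulfate, was at 2.90 and 2.52 in intact samples and at 5.48, 4.17, 4.80 and 6.73 in castrated samples, a difference of 0.84 (limma adjusted p = 0.133). B3gnt3, which extends core 1 O-glycans and took the largest share of this family per length, was at 120.2 and 147 in intact samples and at 87.8, 116, 90.5 and 113 in castrated samples. Its groups were close, at a difference of -0.39 (95% interval -0.77 to -0.01, limma adjusted p = 0.294).

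Among the beta-1,3-galactosyltransferases, B3galt2 was at 4.17 and 10.3 in intact samples and at 1.06, 1.54, 2.11 and 0.727 in castrated samples. The intact samples were both higher but differed from each other, and the difference of -1.99 (95% interval -3.04 to -0.94, limma adjusted p = 0.0843) moved between -2.60 and -1.38 with single samples left out, the smaller size being without intact sample 2. B3galt6, which builds the proteoglycan linker and was the family's highest per length by group mean, ranged from 17.7 to 21.7 over the 6 samples, a difference of 0.12 (95% interval -0.18 to 0.42). In the intact group its mean of 5.60 per kb was close to the 5.59 of B3galt4, and B3galt5 was higher in intact sample 1 and B3galt4 in intact sample 2.

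N-glycan branching showed no member past the test among 7 tested. Mgat2, which starts the second antenna and was the most abundant of the family per length by group mean, was at 107 and 90.7 in intact samples and at 71.5, 86.9, 86.8 and 85.1 in castrated samples. All castrated samples were lower, at a difference of -0.26 (95% interval -0.55 to 0.04, limma adjusted p = 0.373). Mgat1, which adds the first GlcNAc of hybrid and complex chains, differed by -0.17 (95% interval -0.37 to 0.03). St6gal1, the enzyme that caps N-glycans with alpha-2,6 sialic acid, differed by -0.11 (95% interval -0.67 to 0.46), a sign that turns without castrated sample 1 (0.063). Fut8, which adds the core fucose, differed by 0.07 (95% interval -0.27 to 0.42).

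Fucosyltransferases that make Lewis antigens differed between members. Fut4, a maker of Lewis x, was at 72.1 and 57.1 in intact samples and at 17.9, 21.7, 12.2 and 29.2 in castrated samples. The castrated samples were all below the lower intact value. The difference was -1.71 (95% interval -2.48 to -0.93, limma adjusted p = 0.0587), and the adjusted p was 0.0124 without castrated sample 4. Per length, Fut4 made up 44.8% and 31.9% of the summed Fut family in the intact samples and 12.0%, 15.5%, 9.99% and 18.3% in the castrated samples. Fut2 made up 12.3% and 20.3% in intact samples against 44.7%, 27.4%, 36.6% and 21.6% in castrated samples. Fut4 was thus above Fut2 in both intact samples and below it in all 4 castrated samples. The family's summed level was 39.5 and 43.9 per kb in intact samples and 29.9 to 39.2 in castrated samples. Fut7, which makes sialyl Lewis x in leukocytes, was below the filter at 0.228 to 0.490 in all 6 samples.

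Sialic acid is added to galactose in the alpha-2,3 link by the St3gal family, and none of its 6 members passed. St3gal4 was at 64.6 and 39.6 in intact samples and at 34.5, 36.5, 33.3 and 35.0 in castrated samples. The castrated values were almost equal and just below the lower intact one, at a difference of -0.53 (95% interval -0.99 to -0.08, limma adjusted p = 0.231). St3gal3 was at 14.7 and 20.2 in intact samples and at 55.3, 33.9, 43.8 and 19.3 in castrated samples. Only castrated sample 4 overlapped the intact range, and the difference was 1.02 (95% interval 0.06 to 1.98, limma adjusted p = 0.279). St3gal6 was at 3.23 and 4.63 in intact samples and between 5.05 and 8.58 in castrated samples, a difference of 0.72 (limma adjusted p = 0.235).

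Per length, the leading member of the St3gal family was St3gal4 in the intact samples, with 57.2% and 45.0% of the summed level. In castrated samples St3gal4 held 30.1%, 37.9%, 31.5% and 37.5%, and St3gal3 50.9%, 37.2%, 43.7% and 21.8%. St3gal3 was therefore ahead in castrated samples 1 and 3 and not in samples 2 and 4.

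Of the alpha-2,8-sialyltransferases, which build chains of sialic acid, St8sia6 was at 1.12 and 0.560 in intact samples and at 2.91, 5.46, 9.55 and 2.84 in castrated samples. All castrated samples were above the intact pair, at a difference of 1.96 (95% interval 0.77 to 3.15, limma adjusted p = 0.113). St8sia4, a polysialyltransferase of the neural cell adhesion molecule, was the family's highest per length by mean in intact samples (St8sia6 in castrated samples) and differed by 0.08 (95% interval -0.57 to 0.73), a sign that turns without intact sample 2 (-0.24) or castrated sample 4 (-0.049).

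Levels were compared between genes only after division by exon length, with all exons of a gene in GENCODE M21 joined. The gene models behind the deposited counts may differ from these. B4galnt2 was at 303 rescaled CPM per kb on average in intact samples and at 62.9 in castrated samples, first among the members in both. It held 33.1% and 30.0% of the summed level of all members in the intact samples, and 15.1%, 10.1%, 8.16% and 8.21% in the castrated samples. Galnt2, with 90.0% of its exon bases shared with Gm20388, was second in castrated samples (36.5 per kb). B4galt1 had been second in intact samples (68.5 per kb). B4galt1 stood at 31.4 per kb in castrated samples, and B4galnt1 ranked 3 in both groups, at 58.8 and 34.3 per kb. Abo moved from rank 18 (15.1 per kb) to rank 74 (0.0260 per kb), B4galt6 from 20 to 40, and Gcnt1 from 43 (2.14 per kb) to 26 (6.53 per kb). These ranks are over group means, and neighbours in the order were not tested against each other.

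**Figure D3:**
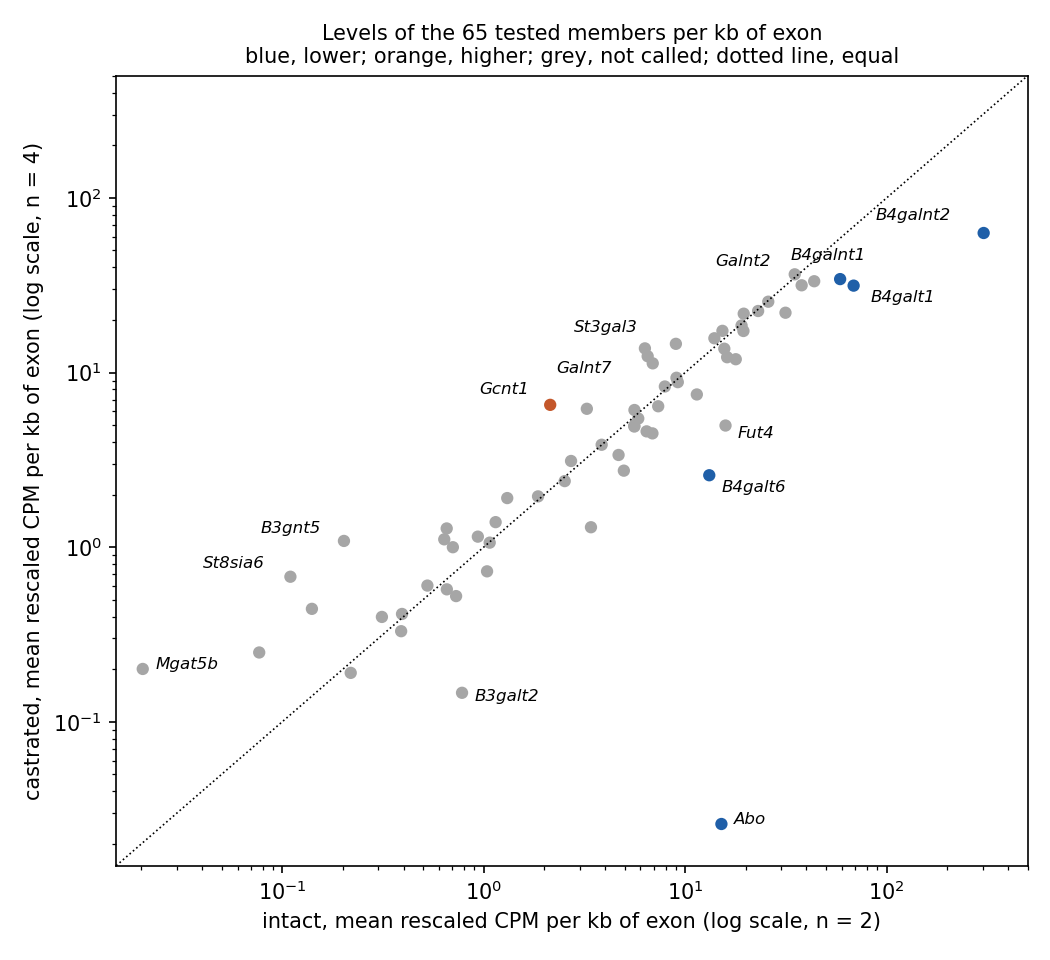
Mean rescaled CPM per kb of exon of the 65 tested members in intact (horizontal, n = 2) and castrated samples (vertical, n = 4), both on log axes. Most members lie near the dotted line of equal levels, with Abo far below it, B4galnt2, B4galt1, B4galnt1 and B4galt6 below it, and Gcnt1 above it.

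A group of members varied more among the castrated samples than between the groups. The log2 range over castrated samples was above 2 in 6 of the 65 tested members, against 3.53% of all tested genes. These 6 were picked out after their values were seen. Mgat3, which adds the bisecting GlcNAc of N-glycans, was at 49.7 and 132.5 in intact samples and at 25.2, 135.2, 27.6 and 217 in castrated samples. Galnt6 was at 43.3 and 26.4 in intact samples and at 12.5, 106, 15.2 and 91.9 in castrated samples. In both genes castrated samples 1 and 3 were low and samples 2 and 4 high. St6galnac2, which sialylates the GalNAc of O-glycans, was at 38.1 and 59.4 in intact samples and at 10.7, 51.9, 8.14 and 56.4 in castrated samples. Fut9, a maker of Lewis x, was at 26.3 and 48.8 in intact samples and at 17.0, 47.1, 17.5 and 90.6 in castrated samples. The order of the castrated samples was again 1 and 3 below 2 and 4. Mgat5b, at 0.0468 and 0.140 in intact samples, was at 0.0761, 2.06, 0.193 and 1.36 in castrated samples, and B3galt5, a maker of type 1 chains, ran the other way at 30.1, 10.8, 22.1 and 4.60, with 50.1 and 11.04 in intact samples.

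Summed markers of basal epithelial cells were also low in castrated samples 1 and 3. The sum over 6 genes was 3552 and 3955 in the intact pair and 751, 3669, 976 and 2832 in the castrated samples by number, and 1 of the 6 fell (Lamb3). Krt5, Krt14, Krt15 and Trp63 were each lower in castrated samples 1 and 3 than in 2 and 4. Lamb3 was nearly level over the castrated samples (40.2, 43.9, 42.4 and 47.6), and Itga6 was at 154.8, 216.8, 217.4 and 254.1, with samples 2 and 3 alike. The part of basal cells in the values of these 6 members was not tested. The 95% intervals of the group differences were wide for Mgat3 (-2.61 to 2.08), Galnt6 (-2.17 to 2.44), St6galnac2 (-3.10 to 0.99) and Fut9 (-1.79 to 1.62). Mgat3 differed by -0.27 with all samples and by between -0.97 and 0.44 with one left out. B3galt5 differed by -0.77 and by between -1.84 and 0.29.

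**Figure D4:**
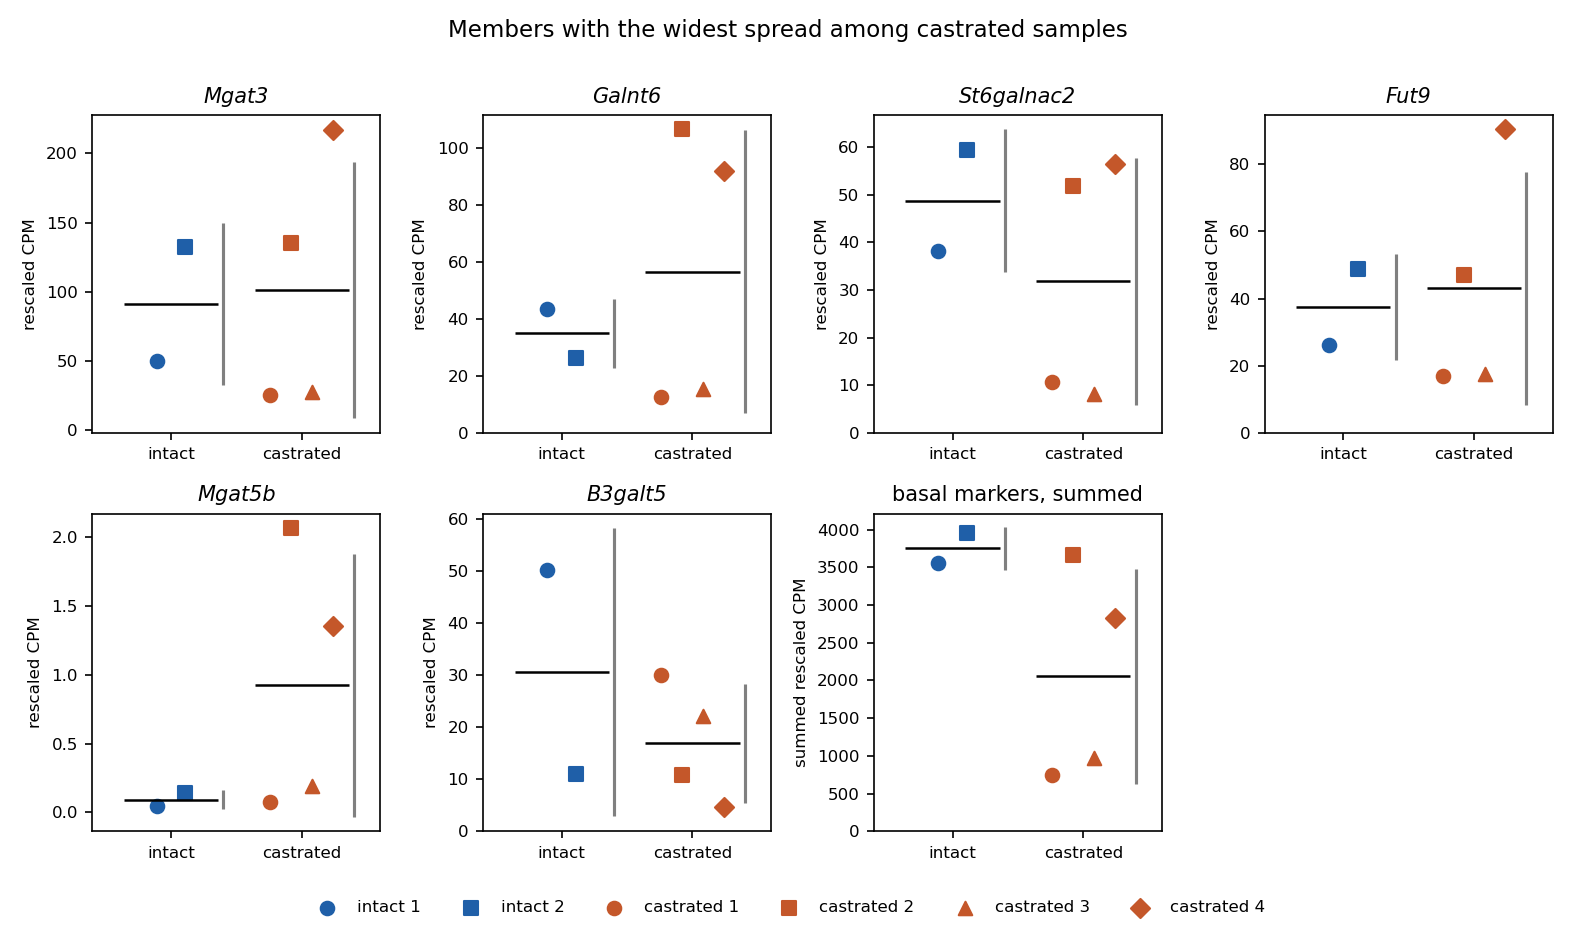
Rescaled CPM per sample (vertical axes) of the 6 members with a log2 range above 2 among castrated samples, and the summed basal epithelial markers, with group means as lines and 1 SD as grey bars (n = 2 and n = 4). Castrated samples 1 and 3 are low and 2 and 4 high in Mgat3, Galnt6, St6galnac2, Fut9, Mgat5b and the marker sum, and the reverse holds in B3galt5.

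The filter left 21 members untested. Of these, 4 had 0 reads in all 6 samples (Fut4-ps1, Gcnt7, Mgat4d and St8sia3os), which allows each a level of up to the 3-read floor, and the other 17 had reads but reached at most 1.97 rescaled CPM, in B4galnt3 of castrated sample 4. They include B3galt1, B3gnt4, Galnt9, Galnt13, Mgat4c, Mgat4e, St6gal2, St6galnac1, St6galnac3, St8sia2, St8sia3 and St8sia5.

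The genes that supply and trim these chains were followed through a list of 70 (sugar nucleotide synthesis, Golgi transporters, other transferases, and glycan trimming and breakdown). Of 64 tested, 3 fell and 0 rose, with a median log2 difference of -0.07. Over all tested genes 1.27% fell and 0.698% rose, and the median was 0.00. Slc35a3, the carrier of UDP-GlcNAc into the Golgi, was at 181.7 and 170.0 in intact samples and at 115.6, 106, 111 and 112 in castrated samples. Its difference was -0.66 (SE 0.08, limma adjusted p = 0.0202). Man2a1, the Golgi mannosidase that acts between MGAT1 and MGAT2, was at 427 and 509.9 in intact samples and at 305.6, 241, 262 and 262 in castrated samples, a difference of -0.81 (limma adjusted p = 0.0405). Nans, a synthase of sialic acid, was at 432 and 413 in intact samples and at 268, 199.4, 218 and 174 in castrated samples, a difference of -0.99 (limma adjusted p = 0.0471). In all 3 genes every castrated sample was below both intact samples. Each of the 3 calls was lost with at least 4 of the 6 samples left out singly, at adjusted p of 0.0538 to 0.281. Uap1, which makes UDP-GlcNAc, was higher in all castrated samples than in both intact ones and did not pass (0.70, limma adjusted p = 0.0705).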

How the data were processed

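The 6 samples were each deposited by the authors as one table of gene CPM, reads scaled to 1000000 per sample. Per the submitters' processing notes, TopHat2, HTSeq and edgeR were used with build mm10; their settings, including strand, are not given in the sources used here. Every CPM column summed to 1000000, and 100% of values were whole multiples of 1 read (tolerance 1e-06), so read counts could be recovered. CPM was divided by a median-of-ratios factor per sample. The 13898 genes at or above 1 CPM in 2 or more samples were tested on log2(value + 0.5) with limma 3.58.1 (R 4.3.3), trended empirical Bayes, all 6 samples, and Benjamini-Hochberg adjustment at 0.05; the steps were tested on simulated data.

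The members and gene lists were chosen with earlier results of these data known. Genes are named where they passed the test, belong to the blood group genes, were among the 20 smallest unadjusted p-values or the most abundant of a family, or, of the pathway list, passed or were among its 5 smallest p-values; other named genes were chosen after their values were seen. Some genes that these rules name are not reported here. Alternatives were pseudocounts of 0.1, 1 and 2, other filters and scalings, array weights, count tests on the recovered reads (edgeR 4.0.16, DESeq2 1.42.0), the replicate number as a block, and each sample left out. Gene positions are from GENCODE M21 (GRCm38, the assembly of mm10), and upstream sequences from RefSeq on GRCm38.p6.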

Additional observations from a re-analysis of the deposited data

Results flagged for a closer look

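In 5 of 70 genes checked, 1 of the 4 castrated samples lay far from the other 3 (the gap to the nearest of them, as a share of the group's range, was above Dixon's 95% critical value, which chance exceeds in about 1 in 20 groups). The check used rescaled CPM and not its log, so the rate of 1 in 20 may not hold. It was not run over all tested genes, so whether 5 of 70 is more than the usual share is not known. Castrated sample 4 was the highest in 4 of these 5 genes. B4galt5, a lactosylceramide synthase, was at 36.8 rescaled CPM there and at 12.5 to 16.6 in the other castrated samples. Gcnt4, a core 2 enzyme, was at 3.07 against 1.15 to 1.27. St3gal2, which sialylates gangliosides and O-glycans, was at 29.6 against 11.1 to 13.8. St6galnac6 was at 8.61 against 5.19 to 5.70. In Mgat2 castrated sample 1 was the lowest, at 71.5 against 85.1 to 86.9.

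Castrated sample 4 also had the highest summed markers of endothelium (129 against 71.2 to 72.8), fibroblasts (1774 against 757 to 1319) and macrophages (695.5 against 448 to 487) of the castrated group. Their part in these 4 values was not tested.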

How the results depend on the processing

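The number of all genes past the threshold moved from 274 to 170 with no filter, 954 with array weights, 1293 with DESeq2 and 417 with the replicate block, and ranged from 19 to 1047 over fits that drop 1 sample (19 without either intact sample, where the lone intact sample is assumed to vary like the castrated group, 77, 83 and 46 without castrated samples 1, 2 and 3, 1047 without castrated sample 4). Of all genes past it, 35.4% were higher, against 51.2% with DESeq2 and 26.6% with edgeR. Members past it moved from 6 to 13 with array weights (6.86% of all genes) and 14 with DESeq2 (9.30%). With a castrated sample left out, 3 members passed without sample 3 and 14 without sample 4. Fits with a sample left out kept the genes that passed the filter with all samples. With edgeR 5 members passed (1.46% of all genes). Pathway genes past it moved from 3 to 1 with no filter, 1 without the mean-variance trend, 7 with array weights and 10 with DESeq2, and ranged from 0 to 8 with 1 sample left out (0 for 4 of the 6 samples, 1 for castrated sample 1, 8 for castrated sample 4). B4galt1 was also lost with no filter (adjusted p = 0.0768), with CPM as deposited (0.0605), quantile normalization (0.0563) and no trend (0.0676), all by limma with Benjamini-Hochberg adjustment. Abo could not be tested where CPM of at least 1 was required in 4 samples. Of the alternatives run on Galnt2, Gcnt2, St6gal1 and St8sia4, none past the threshold, signs turned in 9: Galnt2 with array weights (-0.00050), the replicate block (-0.077) and without castrated sample 4 (-0.089; range over samples left out -0.089 to 0.13), Gcnt2 without intact sample 2 (-0.085) or castrated sample 2 (-0.019; range -0.085 to 0.17), St6gal1 without castrated sample 1 (0.063; range -0.20 to 0.063), and St8sia4 with the block (-0.090) and without intact sample 2 (-0.24) or castrated sample 4 (-0.049; range -0.24 to 0.40). The signs of Mgat3 and B3galt5 also turned with 1 sample left out (up to 0.44 and 0.29). The cause was not tested. Same-numbered intact and castrated samples deviated together at 0.0754 and 0.226 (2 pairs). With 2 intact samples the deviations mirror each other, so these values cannot decide whether the numbers pair the samples. The main fit did not take them as pairs. With the numbers as a block 9 members and 4 pathway genes passed. In that fit castrated samples 3 and 4 have no intact partner, so its differences rest on samples 1 and 2 of each group. The intact group has 2 samples, which limits precision.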
